A study of Mus musculus with 6 samples.

Results

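A group of 10 mRNAs for proteins that sit on lipid droplets or release and route their fat were followed in fetal mouse hepatocytes with and without Cnot3. The members are Hsd17b13, Hsd17b11, Plin2, Plin3, Cidec, Pnpla2, Pnpla3, Abhd5, Lpin1 and Lpin2, 10 of the 18193 named genes on the arrays. Their probe sets were found by annotated symbol, and the list was chosen with earlier results of these data known. They are covered by 20 probe sets, each naming its gene alone. The brightest probe set on average stands for each gene, and the other probe sets of the 6 genes that have several are given as a check. All 10 members passed the filter on dim genes, which asks that a gene exceed the 20th percentile of intensity on at least 1 array.

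Hepatocytes were taken from E16.5 mouse embryos and cultured with oncostatin M and dexamethasone. In the Cnot3KO group, Cre recombinase under the albumin promoter acts on a floxed Cnot3 allele, so recombination is limited to albumin-expressing cells. The labels call the control group wild type, while the methods count mice without Cre or with at least 1 intact Cnot3 allele as controls, and the mixture on these arrays is not stated. The authors describe the loss of Cnot3, a subunit of the Cnot complex, whose removal of the poly(A) tail is the usual first step in the decay of an mRNA, as partial in the liver of the fetus and as efficient once culture had ended. Transcription was blocked in cells of both genotypes with actinomycin D (ActD) for 0, 6 or 12 h, and every combination of genotype and time was hybridised to a single array, 6 arrays in all. The comparisons ask which mRNAs differed in level between the genotypes and how quickly each was lost once transcription had stopped. There were no replicate arrays, so that no error can be given for a difference at a single time. P-values below for a genotype difference measure its agreement over times, and those for slopes the scatter around a straight line in hours. Both draw part of their error estimate from all genes, and neither measures the spread between embryos.

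A lipid droplet is a core of triglyceride and sterol ester inside a monolayer of phospholipid that carries its own set of proteins. Perilipins coat the droplet and limit access of lipases, Pnpla2 with its coactivator Abhd5 starts the hydrolysis of triglyceride, and lipins make the diacylglycerol from which new triglyceride is built. Hepatocytes store and release fat through these proteins, and an excess of droplets defines fatty liver.

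Of 9 hepatocyte markers on the arrays, 8 were at 2603 or above on all 6 arrays, with Alb, the gene for albumin, at 33652 or above, and Tat, an enzyme of tyrosine breakdown, was at 72.9 to 122, near the array medians of 69.7 to 72.4. Of 5 markers of adipocytes, the other cell type rich in droplets, Adipoq and Lep lay between 14.4 and 25.2, near the 20th percentile of 19.7 to 22.4. The other markers on that list were above it, Retn at 62.6 to 110, Slc36a2 at 87.5 to 125 and Fabp4 at 1128 to 1423 in control and 406 to 776 in Cnot3KO cells. Cnot3 itself was at 296, 214 and 158 in control cells and 174, 174 and 146 in Cnot3KO cells, which is 1.70-fold lower at 0 h, while its difference over the 3 times had an adjusted p of 0.182 (limma). The position of its probes relative to the floxed exons was not analysed here. Several marker levels of other cell types differed with the genotype, though not all of a list in the same direction. The summed intensity of 10 macrophage markers was 14371 to 17709 in control and 12823 to 14971 in Cnot3KO cells, which overlap. At 0 h 3 of these markers were over 1.5-fold lower in Cnot3KO cells. For 8 endothelial markers the sum was 884 to 1772 in control and 523 to 1160 in Cnot3KO cells, and 2 of them were over 1.5-fold lower at 0 h. For 10 stellate cell markers it was 10510 to 12122 and 5546 to 8130, and 1 was lower. For 5 cholangiocyte markers the sum was 18157 to 21818 in control and 31630 to 37851 in Cnot3KO cells, and 3 were over 1.5-fold higher. Lyz2 and Csf1r carry most of the macrophage sum, and Krt19 and Krt7 most of the cholangiocyte sum. Among markers that went the other way at 0 h, Cd68, Clec4f and Reln were higher by 0.20, 0.08 and 0.32 (log2), and Sox9 differed by -0.28. Of all genes, 2.99% were over 1.5-fold lower at 0 h and 6.87% higher. The part of these cell types in the results below was not tested. In bulk RNA, fewer cells of a type and less RNA per cell cannot be told apart.

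The promoter windows of 4 members are shown because these are the droplet enzyme and the perilipins whose signal did not overlap between the genotypes, together with the gene next to the enzyme, whose signal did. Hsd17b13 (5:103955442-103977388) and Hsd17b11 (5:103989765-104021796) lie next to each other on chromosome 5, 12.4 kb apart and on the same strand, and Plin2 and Plin3 are related perilipins on chromosomes 4 and 17. The windows are taken from RefSeq on assembly GRCm38.p6 and hold the 250 bases before and the 50 bases after a listed transcript start. They are written 5′ to 3′ on the strand of the gene, which is the minus strand for all 4. The Hsd17b13 window is chr5:103977339-103977638, that of Hsd17b11 chr5:104021747-104022046, that of Plin2 chr4:86670010-86670309 and that of Plin3 chr17:56290462-56290761. Capitals mark the nuclear receptor half-site AGGTCA, read as TGACCT on the other strand, and the CCAAT box, read as ATTGG on the other strand.
Hsd17b13: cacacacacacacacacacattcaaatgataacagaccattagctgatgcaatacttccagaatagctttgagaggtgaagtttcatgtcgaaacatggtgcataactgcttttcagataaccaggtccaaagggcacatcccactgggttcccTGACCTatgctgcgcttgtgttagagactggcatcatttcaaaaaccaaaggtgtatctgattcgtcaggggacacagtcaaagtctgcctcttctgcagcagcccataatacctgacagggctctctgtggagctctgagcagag
Hsd17b11: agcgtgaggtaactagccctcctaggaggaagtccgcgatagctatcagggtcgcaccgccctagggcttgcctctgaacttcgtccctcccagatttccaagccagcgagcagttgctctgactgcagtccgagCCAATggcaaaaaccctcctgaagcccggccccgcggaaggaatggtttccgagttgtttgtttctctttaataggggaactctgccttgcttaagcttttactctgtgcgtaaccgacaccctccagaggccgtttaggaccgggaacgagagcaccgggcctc
Plin2: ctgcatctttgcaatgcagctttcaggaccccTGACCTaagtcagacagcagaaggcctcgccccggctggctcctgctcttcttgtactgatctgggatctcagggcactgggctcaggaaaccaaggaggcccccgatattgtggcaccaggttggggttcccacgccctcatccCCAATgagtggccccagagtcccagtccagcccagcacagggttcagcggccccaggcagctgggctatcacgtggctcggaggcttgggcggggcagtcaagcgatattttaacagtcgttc
Plin3: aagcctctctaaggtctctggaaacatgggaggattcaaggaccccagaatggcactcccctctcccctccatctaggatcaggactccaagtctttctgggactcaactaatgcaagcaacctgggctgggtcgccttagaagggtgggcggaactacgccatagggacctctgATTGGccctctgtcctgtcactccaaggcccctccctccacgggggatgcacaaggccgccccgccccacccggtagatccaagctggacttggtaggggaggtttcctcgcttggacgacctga
The Hsd17b13 window holds a half-site at -96 from the transcript start and no CCAAT box. The Hsd17b11 window holds the reverse, a CCAAT box at -115 and no half-site. A half-site at -218 and a CCAAT box at -73 stand in the Plin2 window, and only a CCAAT box, at -75, in that of Plin3. No marked motif overlaps another. Over both strands, 4 of the 10 members have a half-site in at least 1 of their 13 windows and 5 have a CCAAT box, and 16.3% and 37.4% of all 32851 windows of this length have one. For the glucocorticoid receptor half-site AGAACA it is 2 members and 19.0% of windows, and for the TATA box TATAAA it is 0 members and 13.6%. Members are counted by gene over any of their windows and the shares are of single windows, so the units are not alike. A match of letters is a description of the window and shows no binding.

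Hsd17b13 and Hsd17b11 are short-chain dehydrogenases anchored on the droplet surface, and Hsd17b13, which can oxidise retinol, is largely confined to the liver. The intensity of Hsd17b13 at 0, 6 and 12 h was 953, 874 and 1743 in control cells, against 305, 322 and 356 in Cnot3KO cells. The same order of times is kept below. Every Cnot3KO array lay below every control array. Before ActD it was 3.13-fold lower in Cnot3KO cells, and over the 3 times the log2 difference was -1.79 ± 0.20 (SE of the fit, 2 residual degrees of freedom, adjusted p = 0.0499, limma). This passed the threshold of 0.05 narrowly, and the alternatives gave adjusted p-values from 1.56e-05 to 0.371, with the highest, at a log2 difference of -1.97, after leaving out the 6 h arrays. A second probe set for Hsd17b13 was dim, at 35.7, 37.1 and 41.5 in control cells and 31.3, 29.5 and 30.6 in Cnot3KO cells, below the median of every array. It was lower in Cnot3KO cells at each time, but by only 0.19 (log2) at 0 h.

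The neighbouring gene Hsd17b11 had no such difference at 0 h. Its intensity was 3395, 3468 and 3579 in control cells and 3271, 3868 and 5353 in Cnot3KO cells. The genotypes overlapped through the Cnot3KO array at 0 h, while those at 6 and 12 h lay above every control array. The difference was -0.05 (log2) at 0 h and 0.23 ± 0.17 over the 3 times (adjusted p = 0.383, limma). Its second bright probe set was 1.30-fold higher in Cnot3KO cells at 0 h, and its remaining set was not above the 20th percentile on any array.

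Both perilipins had more signal on every Cnot3KO array than on any control array. Plin2, the main droplet coat protein of hepatocytes, was at 9345, 7019 and 4799 in control cells and at 13843, 13630 and 14548 in Cnot3KO cells. The distance between the genotypes grew from 1.48-fold at 0 h, just under the limit of 1.5-fold used here, to 1.94-fold at 6 h and 3.03-fold at 12 h. Over the 3 times the log2 difference was 1.04 ± 0.22 (adjusted p = 0.0566, limma), which misses the threshold.

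Plin3, which binds newly forming droplets from the cytosol, was at 1738, 1441 and 806 in control cells and at 4041, 3099 and 3104 in Cnot3KO cells. The genotypes did not overlap, with Cnot3KO cells 2.32-fold higher at 0 h, 2.15-fold at 6 h and 3.85-fold at 12 h. The log2 difference over the 3 times was 1.42 ± 0.21 (adjusted p = 0.0507, limma). Plin2 and Plin3 each have 1 probe set, so no second set could check them.

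Cidec, which fuses droplets at their contact sites and is abundant in adipocytes, was dim. Its intensity was 53.3, 71.8 and 68.2 in control cells and 60.7, 60.9 and 53.7 in Cnot3KO cells, below the median of all 6 arrays. The genotypes overlapped, and the log2 difference over the 3 times was -0.13 ± 0.17 (adjusted p = 0.583, limma).

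Among the lipases and their partner, Abhd5 stood out at 0 h and the lipases did not. Abhd5, the coactivator of Pnpla2, was at 775, 1107 and 906 in control cells and at 1330, 1557 and 1931 in Cnot3KO cells. All Cnot3KO arrays were above all control arrays, by 1.72-fold at 0 h and by 0.79 ± 0.17 (log2) over the 3 times (adjusted p = 0.0568, limma). Its second probe set, at 372, 535 and 391 in control and 441, 609 and 480 in Cnot3KO cells, was also higher at each time but by only 1.19-fold at 0 h, with overlapping genotypes, and 1 further set was not above the 20th percentile on any array. The mean of the 3 sets gave a difference of 0.41 (log2) at 0 h, under the limit.

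Pnpla2, which encodes adipose triglyceride lipase, was at 529, 769 and 694 in control cells and at 589, 726 and 808 in Cnot3KO cells. The values interleave, and the log2 difference over the 3 times was 0.10 ± 0.15 (adjusted p = 0.647, limma), a sign that turned with the mean of its 2 probe sets, with its second set alone and under centring on Gapdh. Pnpla3, a relative of Pnpla2 that binds the same coactivator, was at 104, 112 and 130 in control cells and at 93.3, 106 and 80.3 in Cnot3KO cells. It was lower in Cnot3KO cells at each time, yet the genotypes overlapped and the log2 difference was -0.31 ± 0.18 (adjusted p = 0.262, limma).

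Lipins, which dephosphorylate phosphatidic acid to diacylglycerol and also act with transcription factors in the nucleus, did not differ by over 1.5-fold between the genotypes at 0 h. Lpin1 was at 1039, 294 and 188 in control cells and at 1231, 833 and 879 in Cnot3KO cells, and Lpin2 at 1898, 399 and 216 in control and 2008, 920 and 1021 in Cnot3KO cells. The ratio at 0 h was 1.18 for Lpin1 and 1.06 for Lpin2. After 12 h of ActD, Cnot3KO cells held 4.68-fold more signal for Lpin1 and 4.74-fold more for Lpin2. The log2 differences over the 3 times were 1.32 ± 0.37 for Lpin1 (adjusted p = 0.0767, limma) and 1.18 ± 0.39 for Lpin2 (adjusted p = 0.104, limma).

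**Figure D1:**
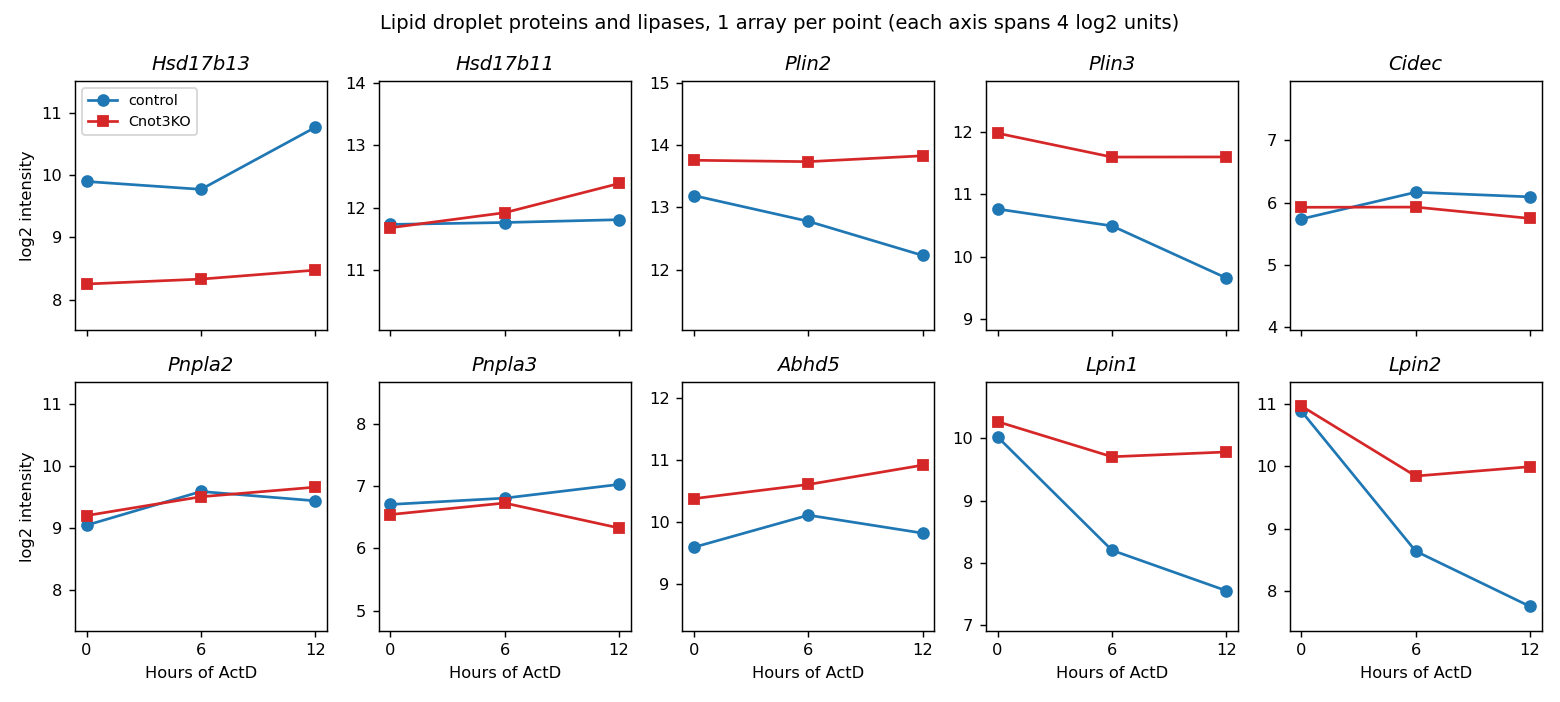
Log2 intensity of the 10 members (1 panel each, 1 point per array) against hours of ActD, control in blue circles and Cnot3KO in red squares. Each vertical axis spans 4 log2 units and its level is not comparable between panels. Hsd17b13 lies lower in Cnot3KO cells throughout, Plin2, Plin3 and Abhd5 lie higher, and Lpin1 and Lpin2 part after 0 h.

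Counted over the members, 2 of 10 were over 1.5-fold higher in Cnot3KO cells at 0 h, Plin3 and Abhd5, and 1 was lower, Hsd17b13. Of all 16110 genes kept at 0 h, 6.87% were higher and 2.99% lower by this limit. The median difference of the members at 0 h was 0.17 (log2) and that of all genes 0.04. Plin3, Abhd5 and Plin2 lay above control on all arrays, 3 of 10 against 15.9% of all genes, and Hsd17b13 below on all arrays, 1 of 10 against 12.0%. Over the 3 times, 1 member passed the adjusted threshold, Hsd17b13, with 0.285% of all genes called lower and 0.703% called higher. At an unadjusted p under 0.05 it was 6 of 10 members, while 33.4% of all genes passed that limit. The median difference over the 3 times was 0.51 for the members and -0.03 for all genes.

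**Figure D2:**
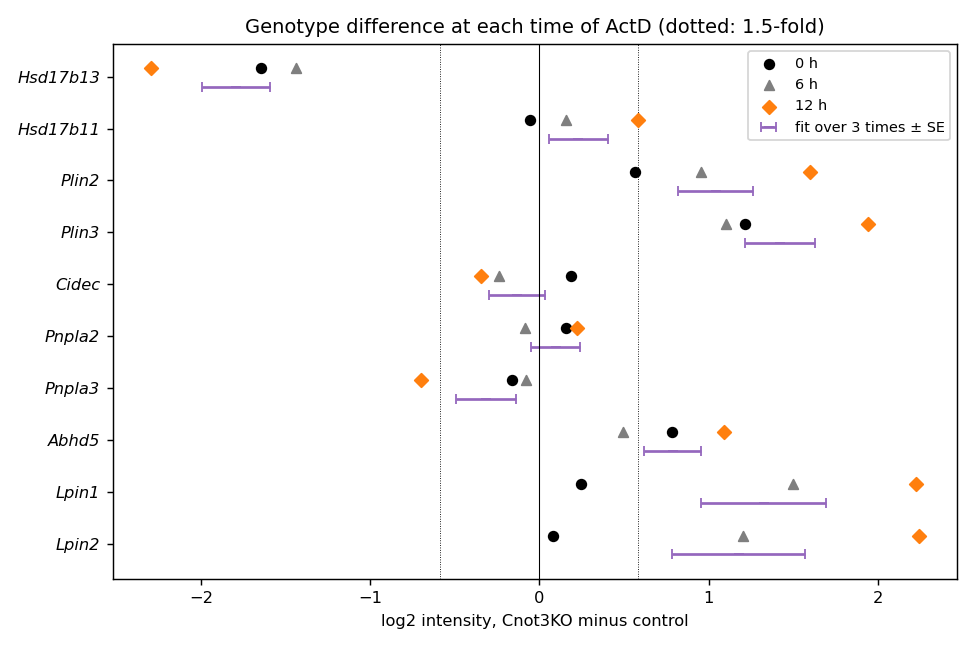
Difference in log2 intensity, Cnot3KO minus control, for each member at 0 h (black circles), 6 h (grey triangles) and 12 h (orange diamonds), with the fit over the 3 times and its SE in purple. Dotted lines mark 1.5-fold. The 12 h points of Plin2, Lpin1 and Lpin2 lie farthest to the right of their own 0 h points.

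The loss of each mRNA after ActD was read as the change in log2 intensity over 12 h. The arrays were scaled to a common distribution, so that each change is read against the rest of the array, and a loss common to every mRNA leaves no trace. In control cells 4 members fell, Lpin1, Lpin2, Plin2 and Plin3, and 0 rose. Of all 16499 genes, 14.5% were called lower and 7.68% higher in control cells. In Cnot3KO cells 0 members were called (limma), against 0.364% of all genes in either direction, and 1 of 10 members, Hsd17b11, had an unadjusted p under 0.05, against 17.6% of all genes. With so few genes called in Cnot3KO cells, the count of 0 does not set the members apart. The median change of the members was 0.15 in control cells, as for all genes, and -0.05 in Cnot3KO cells, where all genes had 0.08.

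By its brightest probe set Lpin2 had the largest loss among the members, an order that turned with the mean of all probe sets (-2.31 for Lpin2 and -2.60 for Lpin1 in control cells). It fell by 3.14 ± 0.48 (log2) in control cells (adjusted p = 0.0144, limma), which left 21.0% of its 0 h signal at 6 h and 11.4% at 12 h. In Cnot3KO cells 45.8% was left at 6 h and 50.9% at 12 h, a change of -0.98 ± 0.48 (adjusted p = 0.374, limma). Most of the loss came in the first 6 h in both genotypes, -2.25 in control and -1.13 in Cnot3KO cells, and between 6 and 12 h the control cells changed by -0.89 and the Cnot3KO cells by 0.15.

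Lpin1 followed the same course at a different depth. It fell by 2.47 ± 0.37 (log2) in control cells (adjusted p = 0.0138, limma), with 28.3% of the 0 h signal left at 6 h and 18.0% at 12 h. Cnot3KO cells kept 67.7% and 71.4%, a change of -0.49 ± 0.37 (adjusted p = 0.581, limma). As half-lives relative to the array, the fitted slopes correspond to 4.86 h in control and 24.6 h in Cnot3KO cells for Lpin1, and to 3.82 h and 12.3 h for Lpin2. These figures assume a constant rate, which the 2 intervals do not show. The Cnot3KO slopes behind them were not called. Leaving out 1 array moved these slopes between -1.13 and 0.15 (log2 over 12 h) for Lpin1 and between -2.25 and 0.30 for Lpin2. A slope above 0 gives no half-life, so the Cnot3KO half-lives have no upper bound here.

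A second Lpin1 probe set, at 807, 167 and 122 in control and 994, 696 and 693 in Cnot3KO cells, changed by -2.73 and -0.52 (log2) over 12 h, close to the first. Lpin2 has 3 further sets. One changed by -2.64 in control and -0.88 in Cnot3KO cells, and one by -3.02 and -1.52, the latter above the 20th percentile on only 4 arrays. The remaining Lpin2 set behaved differently, with 226, 191 and 168 in control and 220, 142 and 147 in Cnot3KO cells, a change of -0.43 and -0.59. Of the 4 Lpin2 probe sets, 3 show the larger loss in control cells and 1 does not. Which transcript forms the sets detect was not analysed here.

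**Figure D3:**
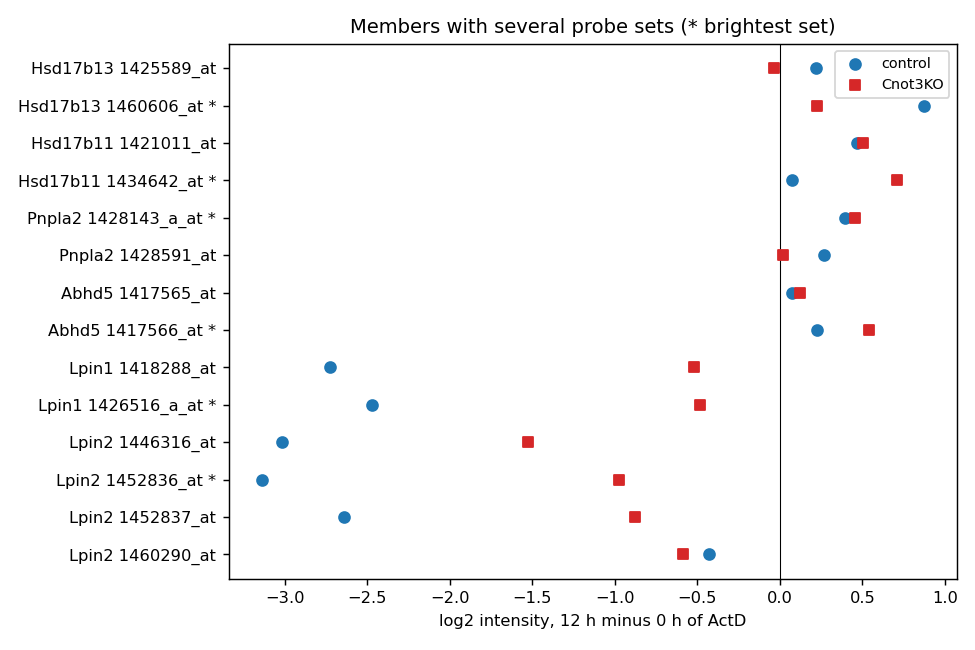
Change in log2 intensity from 0 to 12 h of ActD for each probe set of the members that have several sets above the 20th percentile on at least 4 arrays, control in blue circles and Cnot3KO in red squares, with the brightest set of a gene starred. Both Lpin1 sets and all but 1 of the Lpin2 sets fall farther in control cells.

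Plin2 fell by 0.96 ± 0.20 (log2) in control cells (adjusted p = 0.0266, limma), with 75.1% of its signal left at 6 h and 51.4% at 12 h. Its level in Cnot3KO cells was 98.5% and 105% of the 0 h value, a change of 0.07 (adjusted p = 0.904, limma). Plin3 fell by 1.11 ± 0.25 in control cells (adjusted p = 0.0330, limma), leaving 82.9% at 6 h and 46.4% at 12 h. In Cnot3KO cells 76.7% and 76.8% were left, a change of -0.38 (adjusted p = 0.517, limma). Up to 6 h Plin3 had thus lost about as much signal in Cnot3KO as in control cells, -0.38 against -0.27, and the genotypes parted between 6 and 12 h, where the changes were 0.00 and -0.84.

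These calls in control cells, like those over all genes, depend on the first and the last array. Without the control 0 h array, Lpin1, Lpin2, Plin2 and Plin3 still had negative slopes of -1.30, -1.78, -1.10 and -1.67 (log2 over 12 h), with 0 of them called (limma). Without the control 12 h array Lpin1 and Lpin2 were called and Plin2 and Plin3 were not, at -0.83 and -0.54. Of all 16499 genes, 0 were called without the control 0 h array and 954 without the control 12 h array, against 3667 with all arrays (limma). Over 13 alternatives the highest adjusted p was 0.220 for Lpin1, 0.251 for Lpin2, 0.196 for Plin2 and 0.400 for Plin3.

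The remaining 6 members had no called change in either genotype. Hsd17b13 had a change of 0.87 ± 0.33 (log2) in control cells (adjusted p = 0.103, limma), all of it between 6 and 12 h, and without the control 12 h array the value was -0.25. In Cnot3KO cells it was 0.22 (adjusted p = 0.800, limma). Hsd17b11 showed 0.08 in control and 0.71 ± 0.20 in Cnot3KO cells (adjusted p = 0.151, limma). Abhd5 showed 0.23 and 0.54, Pnpla2 0.39 and 0.46, Pnpla3 0.32 and -0.22, and Cidec 0.36 and -0.18. None of these mRNAs was lost faster than the average mRNA by a called amount.

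**Figure D4:**
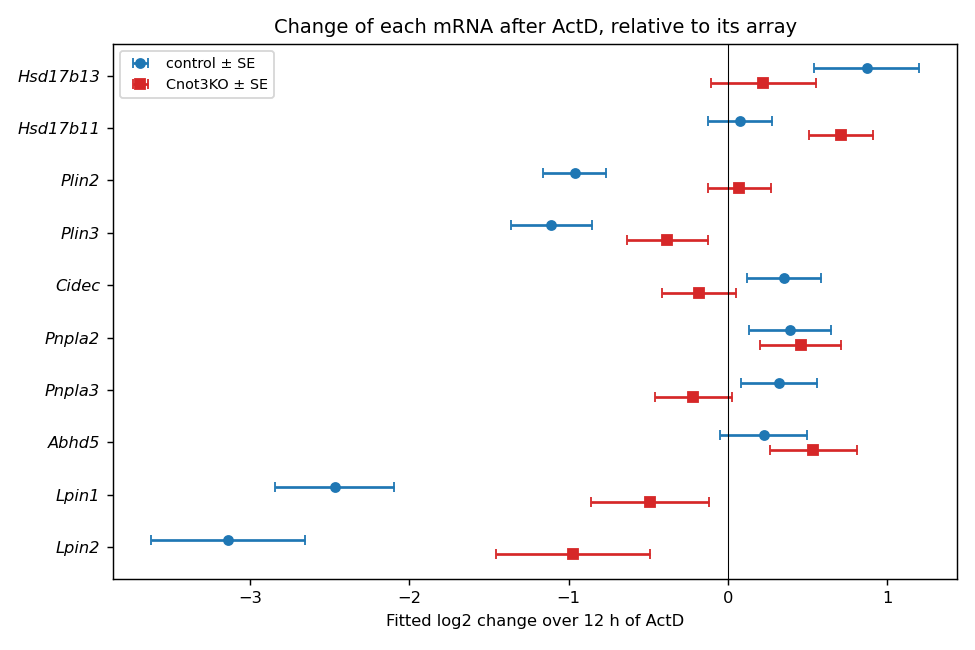
Fitted change in log2 intensity over 12 h of ActD for each member, with the SE of the fit, control in blue circles and Cnot3KO in red squares. In control cells Lpin1, Lpin2, Plin2 and Plin3 lie below 0 by more than their errors, and in Cnot3KO cells the same 4 lie nearer to 0.

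Whether the loss itself differed between the genotypes was tested as a difference of slopes. By this test 0 of 10 members were called, as were 0.0% of all 16499 genes (limma). At an unadjusted p under 0.05 it was 3 of 10 members, Lpin1, Lpin2 and Plin2, against 17.7% of all genes. The difference over 12 h was 2.16 ± 0.68 for Lpin2 (adjusted p = 0.220, limma), 1.98 ± 0.53 for Lpin1 (adjusted p = 0.189, limma) and 1.03 ± 0.28 for Plin2 (adjusted p = 0.191, limma). Leaving out 1 array moved the value to between 0.80 and 3.52 for Lpin2 and between 0.81 and 3.15 for Lpin1, lowest without the control 0 h array and highest without the control 12 h array. Plin3 had 0.73 ± 0.36 (adjusted p = 0.339, limma) and Hsd17b11 0.63 ± 0.28 (adjusted p = 0.306, limma). Hsd17b13, Cidec and Pnpla3 had differences of -0.65, -0.53 and -0.54, and Pnpla2 and Abhd5 of 0.06 and 0.31. The median over the members was 0.47 and that over all genes -0.04. A call in control cells and none in Cnot3KO cells is therefore no test that the decay differed, and the test of the difference passed for no member.

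Lists of related genes give the setting. Of 27 other droplet proteins on the arrays, 5 fell in control cells over 12 h, 3 rose and 19 were not called (limma). Of all genes, 14.5% fell and 7.68% rose in control cells. In Cnot3KO cells 0 of the 27 were called (limma), while 7 had an unadjusted p under 0.05, a limit that 17.6% of all genes passed. The 5 that fell were G0s2, Sqle, Acsl3, Plin5 and Faf2, of which all but G0s2 are named after their values were seen, as are the other genes below that are named for a call. G0s2, the protein inhibitor of Pnpla2, was at 1196, 126 and 112 in control cells and at 2396, 791 and 723 in Cnot3KO cells. It was above control at each time and 2.11 ± 0.35 (log2) higher over the 3 times (adjusted p = 0.0526, limma). Its change over 12 h was -3.42 in control (adjusted p = 0.0383, limma) and -1.73 in Cnot3KO cells (adjusted p = 0.359, limma).

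Acsl3, which activates fatty acids on nascent droplets, was at 828, 338 and 149 in control and 1016, 689 and 720 in Cnot3KO cells, a change of -2.47 (adjusted p = 0.00789, limma) and -0.50. Sqle, the squalene epoxidase of sterol synthesis that also resides on droplets, was at 6045, 2011 and 841 in control and 5401, 4021 and 4235 in Cnot3KO cells. Plin5, the perilipin that links droplets to mitochondria, went the other way from Plin2 and Plin3 at 0 h, at 215, 104 and 64.7 in control and 155, 107 and 85.0 in Cnot3KO cells. Hilpda, a further inhibitor of Pnpla2, was at 341, 171 and 278 in control and 375, 426 and 775 in Cnot3KO cells, with a log2 difference of 0.98 ± 0.28 over the 3 times (adjusted p = 0.0815, limma). Bscl2, which encodes the seipin of droplet formation, was among the 3 that rose in control cells, by 1.19 (log2, adjusted p = 0.0217, limma), with 1.44 in Cnot3KO cells. The other two were Fitm1 and Mettl7a1.

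At 0 h the largest differences among these droplet proteins were those of G0s2, Fabp1, Fabp4 and Ubxn4. The fatty acid binding proteins Fabp1 and Fabp4 were 1.79-fold and 1.67-fold lower in Cnot3KO cells, and Ubxn4 was 1.58-fold higher. Fabp4 is also made by endothelial cells and macrophages. At 0 h, 2 of 8 endothelial and 3 of 10 macrophage markers were over 1.5-fold lower, while the macrophage markers Cd68 and Clec4f were slightly higher. The part of these cells in the level of Fabp4 was not tested. By count, 2 of the 27 were over 1.5-fold higher and 2 lower, against 6.87% and 2.99% of all genes. Their median difference was -0.10 (log2).

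Of 21 other lipases and esterases that passed the filter, 1 fell in control cells, 3 rose and 17 were not called (limma), against 14.5% and 7.68% of all genes called lower and higher. In Cnot3KO cells 0 were called (limma), with 2 at an unadjusted p under 0.05, against 17.6% of all genes. Ddhd1, a phospholipase, fell by 1.15 (log2, adjusted p = 0.0210, limma) and changed by 0.03 in Cnot3KO cells, where its intensity was 209, 186 and 213 against 132, 86.1 and 59.6 in control cells. The esterases Ces2a, Aadac and Ces1d rose in control cells by 1.30, 0.97 and 0.90. Lipe, the hormone-sensitive lipase, and Mgll, which splits monoglyceride, were not called in either genotype, at -0.30 and 0.08 for Lipe and -0.48 and -0.54 for Mgll. At 0 h Abhd6, Ddhd1 and Pnpla6 were 1.60-fold, 1.58-fold and 1.51-fold higher in Cnot3KO cells, Daglb was 1.36-fold higher, and 0 of the list were over 1.5-fold lower. Of all genes, 6.87% were over 1.5-fold higher and 2.99% lower.

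Among 21 genes of triglyceride and ester synthesis, 5 fell in control cells, 1 rose and 15 were not called (limma). The shares of all genes that fell and rose were 14.5% and 7.68%. Of the 4 enzymes that add the first acyl chain to glycerol phosphate, Gpam and Gpat4 fell by 3.69 and 1.25 (log2), while Gpat3 at -0.80 (adjusted p = 0.0983, limma) and the dim Gpat2 at 0.99 (adjusted p = 0.0597, limma) were not called. Agpat2, which adds the next one, fell by 1.08, Ctdnep1, the phosphatase that activates lipins, by 1.33, and Dgat2, which completes the triglyceride, by 1.33. The other Agpat genes and Dgat1 were not called in control cells. Agpat4 was at -1.10, while Agpat1, Agpat3, Agpat5 and Dgat1 had the opposite sign, at 0.70, 0.79, 0.42 and 0.67. For the 5 that fell, the changes in Cnot3KO cells were -1.65 for Gpam, -0.19 for Gpat4, -0.19 for Agpat2, -0.31 for Ctdnep1 and -0.46 for Dgat2. In these cells 0 of the list were called (limma) and 3 had an unadjusted p under 0.05. Mttp, which loads triglyceride onto lipoproteins, was the 1 that rose. Lpin3, the remaining lipin, was at 61.1, 68.3 and 33.8 in control and 97.9, 90.3 and 97.0 in Cnot3KO cells, 1.60-fold higher at 0 h. It lay below the array median in control cells and above it in Cnot3KO cells. Acsl4, which activates arachidonic acid, was 1.82-fold lower at 0 h, Mogat2 1.58-fold higher and Gpat3 1.51-fold higher. Neither this list nor the other two had a gene called over the 3 times or for the difference of slopes (limma). At an unadjusted p under 0.05 over the 3 times the 3 lists had 14 of 27, 5 of 21 and 8 of 21 genes, against 33.4% of all genes. For the difference of slopes it was 8, 2 and 6 of the same numbers, against 17.7%.

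**Figure D5:**
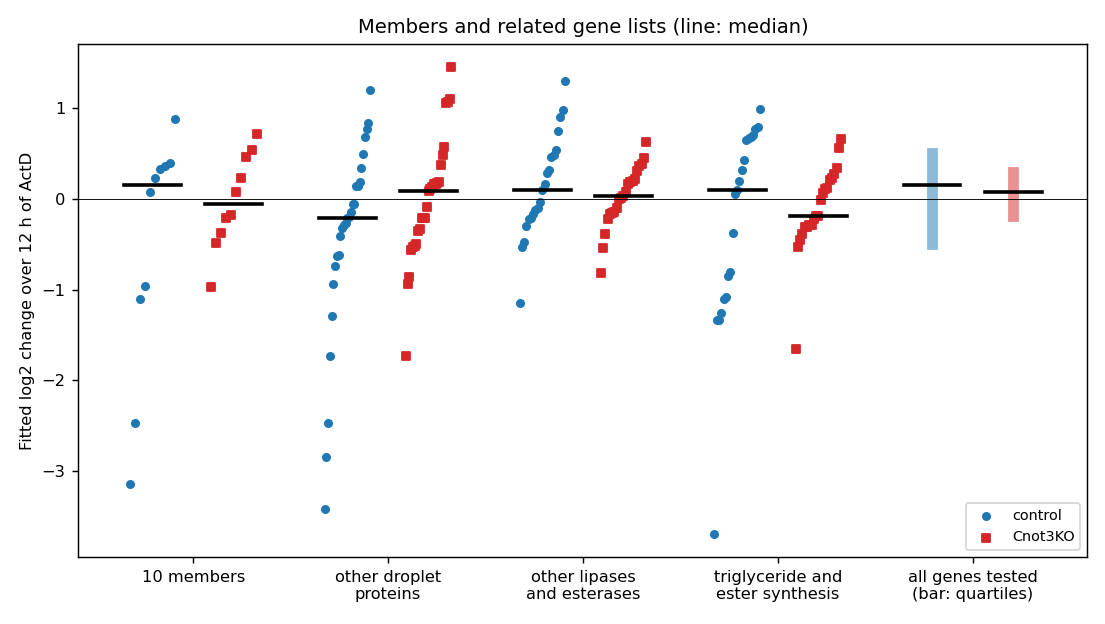
Fitted change in log2 intensity over 12 h of ActD for the 10 members and 3 lists of related genes (1 point per gene, sorted within each column), control in blue circles and Cnot3KO in red squares. Black lines are medians, and bars at the right give the quartiles of all 16499 genes tested. The lowest points in control cells, Gpam, G0s2, Lpin2, Sqle, Lpin1 and Acsl3, lie between -3.69 and -2.47, and no point of the Cnot3KO columns lies below -1.73.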

How the data were processed

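Total RNA of cultured fetal hepatocytes, 1 array for each of 2 genotypes and 3 times, was measured on Affymetrix mouse arrays. The authors deposited intensities on a linear scale, 1 per probe set, computed with RMA per the labels. RMA equalises the distributions of the arrays. Log2 was taken here. The table held 45037 probe sets, of which 34945 carried 1 symbol. Groups come from the labels.

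A gene was kept if it exceeded the 20th percentile of an array at least once, which gave 16499 genes, or 16110 at 0 h. Differences at 0 h were counted beyond 1.5-fold without a test. limma 3.58.1 in R 4.3.3 (lmFit, eBayes, 2 residual degrees of freedom) gave the genotype difference with time as a factor and the slopes on hours for each genotype with their difference, and p-values were adjusted over all kept genes by the Benjamini-Hochberg method at 0.05. The script was tested on simulated data. Between bright probe sets of 1 gene the SD was 0.24 (log2) for the difference at 0 h, 0.32 for that over the times, 0.51 for the change in control, 0.25 for that in Cnot3KO cells and 0.42 for their difference (4117 genes).

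The members and lists were chosen with earlier results of these data known. The genes named are the 10 members, Cnot3 and, from each list, up to 4 with the largest difference at 0 h, and others are said to be chosen after their values were seen. In that way Plin5, Hilpda, Acsl3, Sqle, Lipe, Mgll, Dgat2, Dgat1 and the Agpat genes were chosen too. Of the hepatocyte, adipocyte and erythroid markers, 0, 0 and 0 were over 1.5-fold higher and 0, 1 and 2 lower at 0 h.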

Additional observations from a re-analysis of the deposited data

How the results depend on the processing

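The count of members called over the 3 times was 1. It was 0 with no filter, with a filter at the 50th percentile, with centring on ribosomal protein genes and with no time term. In each of these settings 0 of all genes were called too. It was 2 with probe sets without a suffix, 3 with the mean of all probe sets, 4 with a trend in the prior variance and 6 with centring on Gapdh. Of all genes, 649, 1625, 2063 and 2639 were called there, in that order, against 163 in the main fit. Leaving out the arrays of 1 time gave 0 to 6 members (0 without 6 h, 6 without 0 h). Of all 16499 genes, 0 were called without 6 h and 5810 without 0 h. The count of members called for a change in control cells was 4, and 0 to 5 when 1 array was left out. It was 0 without the control 0 h array and 2 without the control 12 h array. Of all 16499 genes, 0 and 954 were called in these fits, against 3667 with all arrays. Counts at 0 h, in Cnot3KO cells and for the difference of slopes stayed within 1.5 times of the value given. Centring on Gapdh, read from a probe set shared with pseudogenes, shifted all genes by -0.11 (log2) over the 3 times and by 0.18 for the change in control cells, and no other centring moved them by over 0.1.

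The sign turned for Pnpla2 over the 3 times, to -0.057 with the mean of its probe sets, -0.21 without suffixed sets and -0.016 with Gapdh, and for its difference of slopes, to -0.092, -0.25 and -0.15. The Hsd17b11 change in control cells became -0.0015 with ribosomal centring. When 1 array was left out, the change in control cells ranged from -0.15 to 0.86 for Cidec, -0.30 to 1.08 for Pnpla2, -0.58 to 1.03 for Abhd5 and -0.25 to 1.99 for Hsd17b13. The change in Cnot3KO cells ranged from -0.77 to 0.0037 for Plin3, -1.13 to 0.15 for Lpin1, -2.25 to 0.30 for Lpin2, -0.045 to 0.19 for Plin2, -0.36 to 0.0066 for Cidec and -0.80 to 0.37 for Pnpla3. The difference of slopes ranged from 0.80 to 3.52 for Lpin2, 0.81 to 3.15 for Lpin1, 0.16 to 1.29 for Plin3, -1.77 to 0.47 for Hsd17b13, -0.63 to 0.76 for Pnpla2, -0.49 to 1.12 for Abhd5 and -1.12 to 0.047 for Pnpla3. The cause was not tested. Of 595 values of single members under an alternative, 527 were counted as unchanged, 22 turned, 17 passed the threshold newly, 11 no longer passed and 18 moved. Many of these values could not shift by construction, so the count of 527 is no measure of robustness. A difference at 0 h keeps its value under another filter or fold limit. Members with 1 probe set keep their estimates in the probe set settings. A slope keeps its estimate when an array of the other genotype is left out. A fitted difference or slope was unchanged if it kept its sign and its side of the threshold. Differences at 0 h and values of single other probe sets were judged by size alone. They were unchanged if they shifted by less than the SD between probe sets, even where a small value changed sign, and moved if they shifted by more. Time enters the genotype fit as a block, which pairs the arrays by time. No other pairing was possible because each group has 1 array. Dim sets and the 6 arrays limit what Cidec, Lpin3 in control cells and the second Hsd17b13 set can show.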
